A study of Mus musculus with 9 samples.

Results

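Caveolin 1 (Cav1, ENSMUSG00000007655) is 1 of the 8329 genes of a table of expression in sorted mouse skeletal stem and stromal cells. It was chosen by its name, because its level was lowest in bone marrow mesenchymal stem cells (BM-MSCs), higher in resting periosteal skeletal stem cells (P-SSCs) and highest in P-SSCs of a bone graft. Those levels chose the gene, so they are described here without a test. Of the 8329 genes, 3609 were above 0 in at least 1 library, and 1948 passed a filter on low values.

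Bulk RNA was sequenced from cells sorted as CD45-Ter119-CD31-CD51+CD200+, with 3 libraries per group, to ask how P-SSCs differ from BM-MSCs at rest and how they change after transplantation. All mice were wild type (WT) and of the strain C57BL/6J, and the methods of the study give an age of 6 to 12 weeks for its mice in general, with none stated for single libraries. BM-MSCs came from the bone marrow and P-SSCs from the periosteum at day 0, and graft P-SSCs from the periosteum of a femur that had been placed under the skin of a recipient mouse 3 days before. Marrow and periosteum were digested differently, some libraries combined RNA of more than 1 mouse, and the sources used here do not say that cells of the graft were separated from cells of the recipient. Levels are given as FPKM, which is the number of fragments on a gene scaled by the gene's length and by the fragments of the whole library. Libraries held between 16890241 and 21315438 fragments, as inferred from the FPKM, and 2231 to 2829 genes of the table were above 0 in each.

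P-SSC replicate 3 stood apart from the other libraries of its group in several genes named below, such as Sfrp2, Egr1 and F3. Without it, limma called 892 genes between graft P-SSCs and P-SSCs in place of 665. Calls on the genes named below that turn on it are given with and without it.

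Caveolin 1 is the main scaffold protein of caveolae, flask-shaped pits of the plasma membrane that are rich in cholesterol and sphingolipids. It inserts into the inner leaflet as a hairpin, assembles into oligomers and, together with the cavins, bends the membrane, while EHD family ATPases hold the neck of the pit. Caveolae are abundant in endothelial cells, adipocytes, smooth muscle and fibroblasts, where they flatten under mechanical stretch, take part in lipid uptake, and gather receptors and signalling enzymes.

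Cav1 lies on chromosome 6 at 17306335 to 17341452, on the plus strand of GRCm38. The annotation gives it 10 transcripts, of which 7 are protein-coding. Cav1-201 has 3 exons and codes for 178 residues, the alpha form. Cav1-202 starts at 17307640, inside the first intron of Cav1-201, has 2 exons and codes for 147 residues, the beta form, which lacks the first 31 residues of alpha. The FPKM of the gene pools all transcripts, so the forms could not be told apart. The first 120 coding bases of Cav1-201, which run from 17306450 to 17306479 and on from 17307881 to 17307970, are shown because they hold the start codons of both forms, in capitals.
alpha and beta starts: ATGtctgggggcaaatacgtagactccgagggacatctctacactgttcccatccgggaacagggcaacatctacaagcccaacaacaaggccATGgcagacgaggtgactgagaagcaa
The second start codon is at base 94 of the coding sequence, codon 32, in the second exon of Cav1-201.

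The alpha and the beta transcripts named above have separate annotated starts. The 250 bases before each are shown because the data pool the output of both. The sequence is from RefSeq (GRCm38.p6, plus strand), at chr6:17306085-17306334 and chr6:17307390-17307639. The second window lies before the start of Cav1-202, called the intronic start here. Other transcripts with the start codon of the beta form begin upstream of that window, Cav1-203 at 17307278 and Cav1-206 at 17307048. The bases before their starts were not searched. Capitals mark the match to the GC box.
promoter before the first start: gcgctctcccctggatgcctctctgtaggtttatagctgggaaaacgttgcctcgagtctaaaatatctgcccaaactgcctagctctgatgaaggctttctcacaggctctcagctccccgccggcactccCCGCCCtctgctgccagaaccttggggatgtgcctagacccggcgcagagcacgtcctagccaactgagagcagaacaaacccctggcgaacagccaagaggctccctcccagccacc
promoter before the intronic start: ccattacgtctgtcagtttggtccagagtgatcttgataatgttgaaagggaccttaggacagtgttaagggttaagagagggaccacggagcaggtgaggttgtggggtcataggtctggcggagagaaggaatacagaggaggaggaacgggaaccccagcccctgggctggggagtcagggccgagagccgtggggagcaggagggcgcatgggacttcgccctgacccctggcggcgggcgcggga
The GC content was 59.6% in the first window and 60.8% in the second, against a median of 52.4% (quartiles 45.2% and 61.2%) in the 32851 promoter windows of the same length. Of 5 motifs searched on both strands, the GC box (GGGCGG) had 1 match in the first window, at -118 from the start, and 32.7% of all windows held it. The core of the hypoxia response element (ACGTG) matched at -68, a match that 16.6% of windows had. The TATA box letters (TATAAA) matched at -221, and 12.4% of windows held them. The TEAD letters (GGAATG) and the AP-1 letters (TGANTCA), present in 12.6% and 6.75% of windows, had no match in either window, and no motif searched matched in the window of the intronic start. These matches are descriptions of the letters and not sites of binding, and none overlapped another.

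Cav1 was low in BM-MSCs. BM-MSC replicate 1 had 9.79 FPKM, which rests on 153 fragments (95% exact Poisson interval 8.30 to 11.5 FPKM). Replicate 2 had 8.90 FPKM from 155 fragments (7.56 to 10.4), and replicate 3 had 2.31 FPKM from 39 fragments (1.64 to 3.16). Replicate 3 lay below the other two by more than the counting error, and the intervals, which cover counting error only, of replicates 1 and 2 overlapped. Cav1 was therefore detected in every marrow library, and its rank was in the middle or lower part of the detected protein-coding genes of the table: it lay above 59.4%, 59.6% and 30.7% of them in replicates 1, 2 and 3.

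In P-SSCs at steady state Cav1 lay above 93.0% to 97.1% of the detected coding genes. P-SSC replicate 1 had 220.1 FPKM from 4022 fragments, replicate 2 had 135.1 FPKM from 2219 and replicate 3 had 262.4 FPKM from 4614. Replicate 2 was the lowest of the group and replicate 3 the highest, and no interval overlapped another. Every P-SSC library was above every BM-MSC library, the smallest ratio between a P-SSC and a BM-MSC library being 13.8 and the largest 113.6. Between 57 and 130 coding genes were above Cav1 in these libraries.

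Graft P-SSCs had the highest level. Graft P-SSC replicate 1 had 659.3 FPKM from 10786 fragments, replicate 2 had 752.8 FPKM from 14843 and replicate 3 had 702.6 FPKM from 11673. Every graft library was above every steady-state P-SSC library, by 2.51 times between the nearest pair and by 5.57 times between the farthest. Only 21 to 26 coding genes of the table were above Cav1 in a graft library, out of 2254 to 2271 detected.

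**Figure D1:**
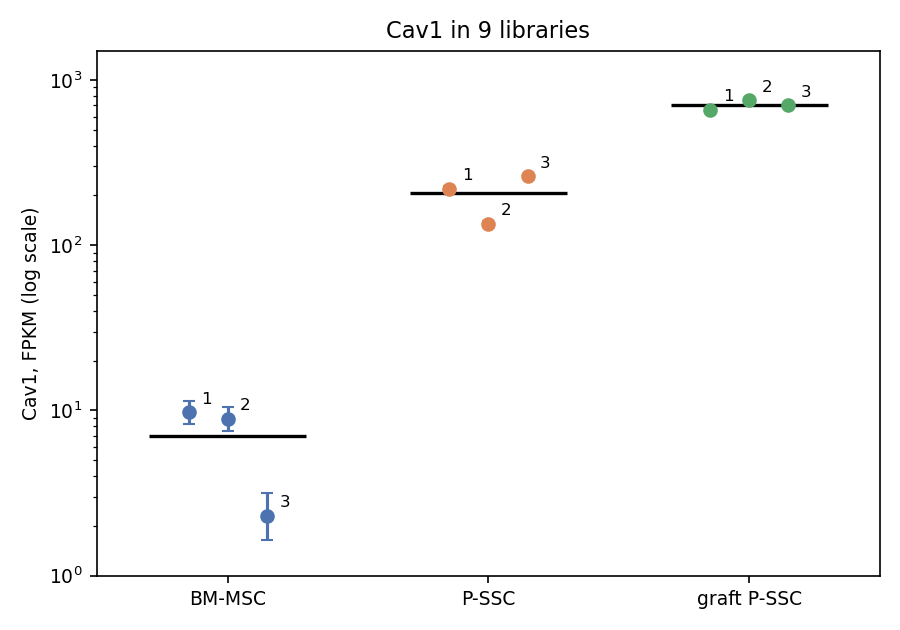
The plot shows the FPKM of Cav1 on a log scale in the 9 libraries, with points numbered by replicate, 95% exact Poisson intervals of the fragments as error bars, and the group mean as a black line. The BM-MSC libraries sit between 2.31 and 9.79, the P-SSC libraries between 135.1 and 262.4 and the graft P-SSC libraries between 659.3 and 752.8, with no overlap between groups.

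The group means were 7.00 ± 4.09 FPKM in BM-MSCs, 205.9 ± 64.9 FPKM in P-SSCs and 704.9 ± 46.8 FPKM in graft P-SSCs (SD, n = 3 each). The ratio of means was 29.4 between P-SSCs and BM-MSCs, 3.42 between graft P-SSCs and P-SSCs and 101 between graft P-SSCs and BM-MSCs. On the log2(FPKM + 1) scale, on which all further differences are given, these were differences of 4.82, 1.82 and 6.64, and the pooled SD within groups was 0.62. Without P-SSC replicate 3 the first was 4.62 and the second 2.02. Of the whole span from BM-MSCs to graft P-SSCs, 72.6% lay between BM-MSCs and P-SSCs.

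Relative to the group mean, the spread of Cav1 between libraries was widest in BM-MSCs and narrowest in graft P-SSCs. The coefficient of variation was 58.4% in BM-MSCs, 31.5% in P-SSCs and 6.64% in graft P-SSCs, while counting error alone would give 11.3%, 1.75% and 0.905%. The highest library of a group was 4.24 times the lowest in BM-MSCs, 1.94 times in P-SSCs and 1.14 times in graft P-SSCs.

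The length by which the authors divided sets the FPKM of Cav1. Its values were whole numbers of fragments at a length of 925 nt, the mean length of its 10 annotated transcripts without the decimals, which run from 323 to 2746 nt. The length column of the table gives 3444 nt, 3.72 times more, and would lower all 9 values alike. By that length Cav1 lay above 97.9% to 98.1% of detected coding genes in graft libraries and above 23.3% to 52.0% in BM-MSC libraries. In fragments per 1000000 fragments of the library, which use no length, Cav1 was at 9.06, 8.24 and 2.14 in BM-MSCs, at 203.6, 125 and 242.8 in P-SSCs, and at 609.9, 696.4 and 649.9 in graft P-SSCs.

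An antisense gene, Gm15581, is annotated across Cav1 on the minus strand, but its exons share 0 bases with those of Cav1, and it was not analysed here. Of the genes within 500 kb of Cav1, the table holds 4, all noncoding or pseudogenes, and none passed the filter. Gm27542 and Gm5721 were listed at 0 in all libraries. Gm15473 was at 0 in all BM-MSC and P-SSC libraries and between 0.040 and 0.33 FPKM in graft P-SSCs. Gm4876, an antisense transcript, had 0.33, 0 and 0 FPKM in BM-MSCs, 2.53, 1.02 and 0.80 FPKM in P-SSCs, and 0.47, 0 and 0.54 FPKM in graft P-SSCs, so it was highest in steady-state P-SSCs and did not have the order of Cav1.

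Cav1 was set against all genes that passed the filter, as a description. Between P-SSCs and BM-MSCs, limma called 191 genes higher (9.8%), and 252 (12.9%) were higher in every library without overlap. The difference of 4.82 in Cav1 ranked 12 of 1948 among increases. Between graft P-SSCs and P-SSCs, 441 genes were called higher (22.6%) and 614 (31.5%) did not overlap, and 215 genes had a larger increase than the 1.82 of Cav1. Between graft P-SSCs and BM-MSCs, 501 genes were called higher (25.7%) and 788 (40.5%) did not overlap. There Cav1 ranked 3, behind Sfrp2, a secreted modulator of Wnt signalling, with a difference of 8.35, and Cilp, a cartilage matrix protein, with 7.03. The median difference of all tested genes was -0.06, 0.26 and 0.28 in the 3 comparisons, which share groups of libraries with each other, and relative to it Cav1 differed by 4.88, 1.56 and 6.36.

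The order of Cav1, with every BM-MSC library below every P-SSC library and every P-SSC library below every graft library, was held by 43 of 1948 genes (2.21%), and the reverse order by 54 (2.77%). Among the 43 genes Cav1 had the largest span on the log2(FPKM + 1) scale. The chemokine Cxcl1 followed with 6.32, then Rcan1, an inhibitor of calcineurin, with 5.46, and Lrrc32, which tethers latent TGF-beta at the cell surface, with 5.20. The next were the actin crosslinker Flnc with 4.55, the chemokine Cxcl2 with 4.30, the vesicle protein Ptprn with 4.28, the interleukin receptor chain Il13ra1 with 4.17, the EGF receptor ligand Hbegf with 4.11 and the heparanase Hpse with 3.90. These genes were named by their rank in the list, after their values were seen. In level, Cav1 ranked 5 of the 43 in graft P-SSCs, below Anxa2, Lgals1, Vim and Postn. On the log2(FPKM + 1) scale, the share of the span between BM-MSCs and P-SSCs was 76.1% in Cxcl1 and 85.2% in Rcan1. It was 30.1% in Cxcl2 and 21.0% in Ptprn, against 72.6% in Cav1. Cxcl2 had means of 0.54 and 2.65 FPKM in BM-MSCs and P-SSCs, and Ptprn 0 and 0.90 FPKM. Spans and shares of such low genes depend on the pseudocount. The rank of Cav1 by span was not tested with other pseudocounts.

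**Figure D2:**
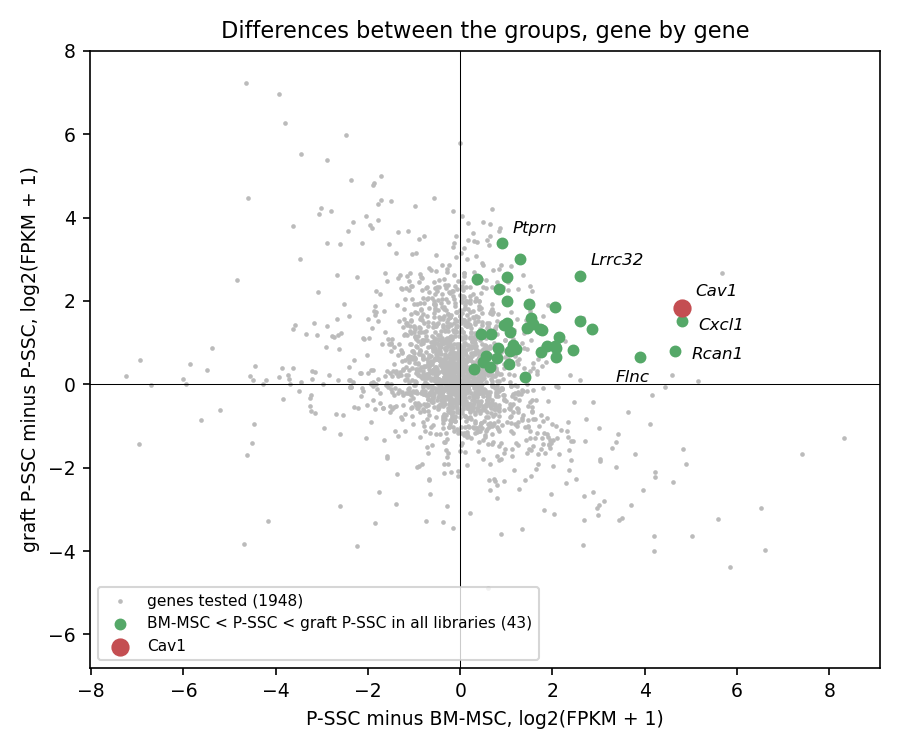
Each point is 1 of 1948 genes, with the difference of P-SSCs from BM-MSCs on the horizontal axis and of graft P-SSCs from P-SSCs on the vertical axis, both on the log2(FPKM + 1) scale. The 43 genes with the order of Cav1 are green, and Cav1 (red), at 4.82 and 1.82, lies farthest to the right among them, beside Cxcl1.

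Without P-SSC replicate 3 the order was held by 72 genes, all 43 of the former among them, and Cav1 came after Sfrp2. Sfrp2 had 1.84, 1.17 and 3.53 FPKM in BM-MSCs, 42.7, 55.1 and 1551 FPKM in P-SSCs, and 994.4, 1097 and 880.3 FPKM in graft P-SSCs. Its P-SSC replicate 3 was above all graft libraries, which kept it out of the 43. Under median-of-ratios scaling 36 genes held the order, and under quantile normalization 42, with 32 of the former 43 kept each time and Cav1 first by span in both.

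The genes whose levels were most like those of Cav1 were taken from Pearson's r over the 9 libraries, on the log2(FPKM + 1) scale. The libraries fall into 3 groups, so r follows the group levels for the most part, and it is given without a p. The median r of 1947 genes was 0.20, and 15 genes were above 0.95 and 30 below -0.95. The highest r was that of S100a4 (0.989), a calcium-binding protein of motile mesenchymal cells. It was followed by Il13ra1 (0.986), by Ddc (0.985), an aromatic amino acid decarboxylase, and by Postn (0.985), the periosteal matrix protein periostin. The others of the 10 were the membrane-binding Anxa2 (0.978), the AP-1 subunit Fosl2 (0.977), the intermediate filament protein Vim (0.976), the collagen VI chain Col6a3 (0.974), Flnc (0.963) and Cxcl1 (0.961).

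S100a4 was a low gene with the same order as Cav1. It had 0.71, 0.38 and 0.26 FPKM in BM-MSCs, 5.95, 4.46 and 5.68 FPKM in P-SSCs, and 12.6, 12.3 and 14.0 FPKM in graft P-SSCs. Il13ra1 had 2.17, 2.38 and 1.93 FPKM in BM-MSCs, 24.0, 13.0 and 33.0 FPKM in P-SSCs, and 56.4, 58.5 and 53.0 FPKM in graft P-SSCs. Within P-SSCs, Il13ra1 ranked the libraries as Cav1 did, with replicate 2 lowest and replicate 3 highest, and its Spearman rho of 0.967 was the highest of all genes. Anxa2, in contrast, had 3346, 3565 and 2305 FPKM in P-SSCs, with replicate 3 lowest.

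Cxcl1 had the smallest Euclidean distance from Cav1 over the 9 libraries (3.40). It had 2.98, 3.16 and 3.92 FPKM in BM-MSCs, 209.1, 137.1 and 60.8 FPKM in P-SSCs, and 379.8, 336.6 and 321.3 FPKM in graft P-SSCs. Its P-SSC libraries ran in another order than those of Cav1, with replicate 1 highest and replicate 3 lowest, and its groups did not overlap. The next in distance were the immediate-early transcription factor Egr1 (4.44), Col6a3 (4.67), the matrix protein Thbs3 (4.73) and Sfrp2 (4.81). Thbs3 did not have the order of Cav1, with 324 to 416.4 FPKM in P-SSCs above the 183.8 to 184.7 FPKM of graft P-SSCs. Egr1 had 54.0, 37.3 and 513.8 FPKM in P-SSCs, and replicate 3 was above the 276.4 to 340.4 FPKM of graft P-SSCs.

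**Figure D3:**
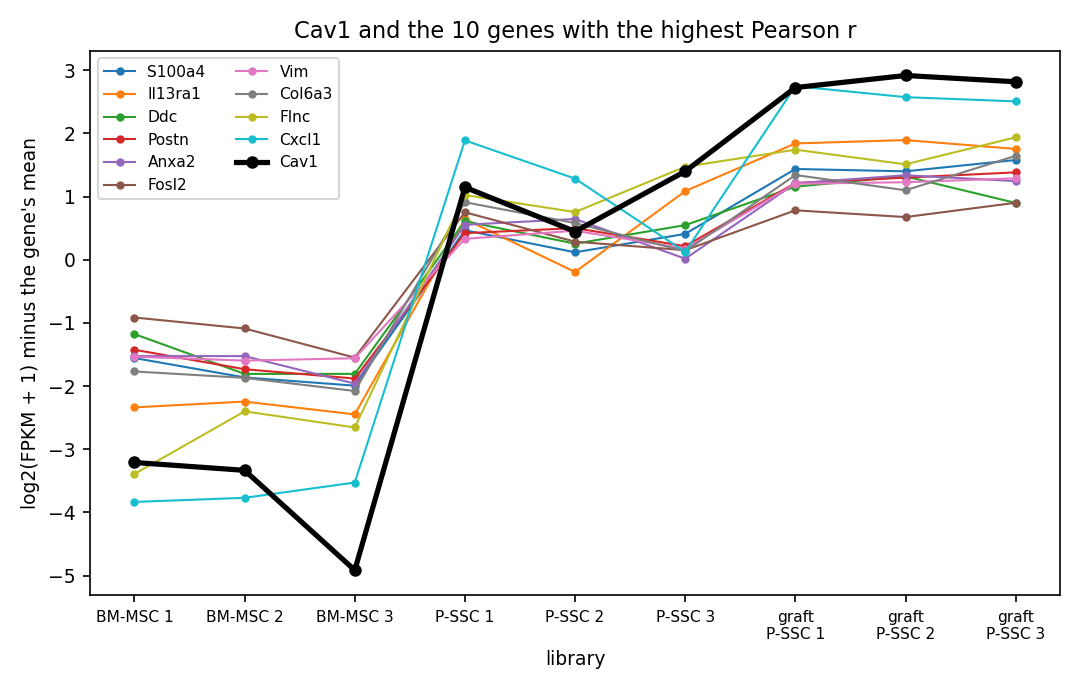
Lines join, for Cav1 (black) and the 10 genes with the highest Pearson r, the values of the 9 libraries on the log2(FPKM + 1) scale minus the mean of each gene. All 11 genes have their lowest mean in BM-MSCs and their highest in graft P-SSCs, Cav1 spans 6.64 between the group means of the outer groups, and BM-MSC replicate 3 is its lowest point.

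The list of like genes moved with the measure and with the libraries. With Spearman's rho in place of Pearson's r, 3 of the 10 genes stayed among the first 10, Anxa2, Ddc and Il13ra1. Without BM-MSC replicate 3, the library in which Cav1 was lowest, 6 of 10 stayed, and without any other library 7 to 10. Anxa2, Ddc, Il13ra1, Postn, S100a4 and Vim stayed whichever library was left out.

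Genes of caveolae and of related processes were taken from lists of 160 genes besides Cav1, of which the table holds 27 and the filter kept 26. Of the 26, 2 were genes of the caveola neck and trafficking and 6 were receptors and signalling proteins of caveolae. The others were 2 raft scaffolds, 6 genes of clathrin endocytosis, 6 of cholesterol synthesis and transport and 4 targets of the factors YAP and TAZ. Cav2, Cav3 and the 4 cavins were not analysed here. Between P-SSCs and BM-MSCs, 5 of the 26 rose, 2 fell and 19 did not pass the test, where 24.2% of all tested genes were called in either direction. The median difference was 0.37, against -0.06 over all genes. Between graft P-SSCs and P-SSCs, 5 rose and 2 fell (34.1% of all genes called), with a median of 0.32 against 0.26. Between graft P-SSCs and BM-MSCs, 10 rose and 5 fell (41.9% of all genes called), with a median of 0.84 against 0.28. These counts were 5 and 4, 9 and 3, and 14 and 5 without P-SSC replicate 3, when 30.4%, 45.8% and 53.3% of all tested genes were called. Median-of-ratios scaling turned the count between graft P-SSCs and P-SSCs to 1 risen and 4 fallen, with 16% of all genes then called higher and 15.5% lower.

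Of the genes of the caveola neck, Ehd4, an ATPase of the EHD family, had 5.79, 4.15 and 5.66 FPKM in BM-MSCs, 4.99, 7.97 and 17.2 FPKM in P-SSCs, and 23.3, 21.6 and 24.9 FPKM in graft P-SSCs. Graft libraries were above all others, and P-SSC replicate 3 was above the other libraries of its group. Ehd4 rose from BM-MSCs to graft P-SSCs by 1.98 ± 0.38 on the log2 scale (SE, limma adjusted p = 0.00286) and from P-SSCs to graft P-SSCs by 1.29 ± 0.38 (adjusted p = 0.0269). The second call was kept in 4 of 9 fits that left out 1 library, with adjusted p between 0.000607 and 0.0895, and was lost under median-of-ratios scaling (0.0562) and quantile normalization (0.0828). Ror1, a receptor tyrosine kinase-like protein, had 0.72 to 1.08 FPKM in BM-MSCs, 0.14, 0.029 and 1.83 FPKM in P-SSCs, and 0.47 to 1.22 FPKM in graft P-SSCs, and passed no test with all libraries. Without P-SSC replicate 3, Ror1 was called lower in P-SSCs than in BM-MSCs by 0.84 (adjusted p = 0.0297) and higher in graft P-SSCs than in P-SSCs by 0.78 (adjusted p = 0.0285).

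Among the raft scaffolds, Anxa2 binds phospholipid at the inner face of the membrane when calcium is high, and Cd59a is a lipid-anchored inhibitor of complement on the outer face. Anxa2 had 791.4, 791.3 and 584.8 FPKM in BM-MSCs and 5273, 5762 and 5404 FPKM in graft P-SSCs, with the P-SSC libraries given above between them. It rose by 2.08 ± 0.20 from BM-MSCs to P-SSCs (limma adjusted p = 4.16e-05) and by 0.86 ± 0.20 from P-SSCs to graft P-SSCs (adjusted p = 0.00825). The second difference was 0.54 and lost its call under median-of-ratios scaling (adjusted p = 0.172), and was 1.90 under quantile normalization. Anxa2 was also among the genes taken for their likeness to Cav1. Cd59a had 13.4, 11.0 and 19.6 FPKM in BM-MSCs, 7.13, 7.08 and 8.62 FPKM in P-SSCs, and 1.62, 1.35 and 0.92 FPKM in graft P-SSCs. The Cd59a groups did not overlap and ran in the reverse order to Cav1. Cd59a fell by 1.91 ± 0.30 from P-SSCs to graft P-SSCs (limma adjusted p = 0.00115) and by 2.75 ± 0.30 from BM-MSCs (adjusted p = 9.77e-05).

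Of the 6 receptors and signalling proteins of caveolae in the table, none passed the test between P-SSCs and BM-MSCs on the unscaled values of all libraries. The EGF receptor Egfr had 114, 98.9 and 79.7 FPKM in P-SSCs and 42.6, 46.6 and 50.4 FPKM in graft P-SSCs, and fell by 1.04 ± 0.19 (limma adjusted p = 0.00218). When P-SSC replicate 3 was left out, Egfr was called higher in P-SSCs than in BM-MSCs by 0.61 (adjusted p = 0.0255). The graft libraries were also below the 59.2 to 77.5 FPKM of BM-MSCs, by 0.57 ± 0.19 (adjusted p = 0.0337, kept in 4 of 9 fits that left out 1 library, up to 0.116). The kinase Prkca had 1.31, 1.39 and 0.98 FPKM in BM-MSCs, 2.26, 2.42 and 8.19 FPKM in P-SSCs, and 10.6, 9.85 and 9.91 FPKM in graft P-SSCs. Under quantile normalization Prkca was called higher in P-SSCs than in BM-MSCs (1.17, adjusted p = 0.0294). Prkca was 1 of the 43 genes with the order of Cav1, and rose by 2.32 ± 0.41 from BM-MSCs to graft P-SSCs (adjusted p = 0.00165). From P-SSCs to graft P-SSCs it rose by 1.25 ± 0.41 (adjusted p = 0.0396), a call kept in 1 of 9 fits that left out a library, the fit without P-SSC replicate 3, and lost under median-of-ratios scaling (0.0741) and quantile normalization (0.0848). The insulin-like growth factor receptor Igf1r and the G protein subunit Gnas were at or below 5.28 FPKM and passed no test.

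**Figure D4:**
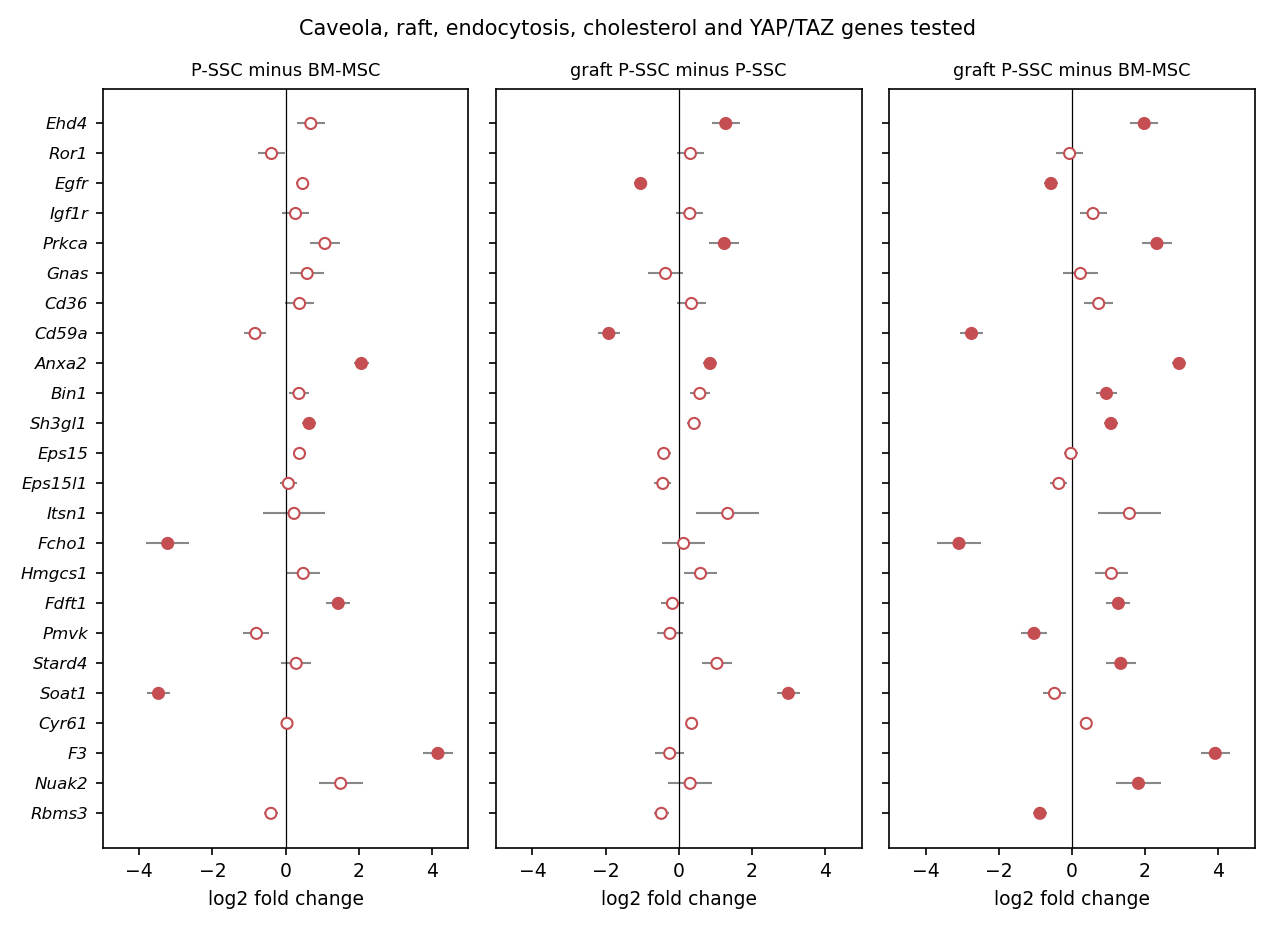
Differences of 24 of the 26 tested genes of caveolae, rafts, endocytosis, cholesterol and YAP/TAZ on the log2(FPKM + 1) scale, with standard errors as bars, for the 3 comparisons. Filled points had a limma adjusted p under 0.05 and open points did not. Fcho1 was listed at 0 in all P-SSC libraries, so its point depends on the pseudocount.

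Clathrin-coated pits are the other main route of uptake. Of the 6 tested genes of clathrin endocytosis, the endophilin Sh3gl1 had the order of Cav1 with a small span. It had 83.3, 90.8 and 63.0 FPKM in BM-MSCs, 106 to 159 FPKM in P-SSCs and 160 to 173 FPKM in graft P-SSCs, and rose by 1.07 ± 0.20 from BM-MSCs to graft P-SSCs (limma adjusted p = 0.00243). Its rise of 0.65 ± 0.20 between BM-MSCs and P-SSCs (adjusted p = 0.0407) was kept in 3 of 9 fits that left out a library, with adjusted p up to 0.126, and was lost without P-SSC replicate 3 (0.46, adjusted p = 0.0713). The amphiphysin Bin1 rose by 0.94 ± 0.28 from BM-MSCs to graft P-SSCs (adjusted p = 0.0219, kept in 4 of 9 such fits, up to 0.0722). Fcho1, an early protein of coated pits named after its values were seen, had 2.65, 6.90 and 27.1 FPKM in BM-MSCs, was listed at 0 in all P-SSC libraries and reached 0.15 FPKM in graft P-SSCs. Fcho1 passed the filter through the BM-MSC libraries alone, so its place among the fallen genes of the counts follows from the filter and no p is given. The scaffolds Eps15 and Eps15l1 passed no test on the unscaled values. Between P-SSCs and graft P-SSCs, Eps15 was called lower in the graft under median-of-ratios scaling (by 0.72, adjusted p = 0.0199) and quantile normalization (adjusted p = 0.0114), and Eps15l1 under quantile normalization (adjusted p = 0.0429). The scaffold Itsn1 had 4.78 to 4.95 FPKM in BM-MSCs, 5.94, 0.49 and 31.0 FPKM in P-SSCs, and 15.7 to 18.1 FPKM in graft P-SSCs, and passed no test with all libraries. Without P-SSC replicate 3, its highest library, Itsn1 was called higher in graft P-SSCs than in P-SSCs by 2.44 (adjusted p = 0.00399) and than in BM-MSCs by 1.57 (adjusted p = 0.019). Bin1 and Sh3gl1 were then called higher in graft P-SSCs than in P-SSCs, by 0.91 (adjusted p = 0.00234) and 0.60 (adjusted p = 0.0165).

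Cholesterol is needed to form caveolae, and 6 genes of its synthesis and transport were tested. The squalene synthase Fdft1 had 11.2, 8.04 and 8.38 FPKM in BM-MSCs, 34.9, 35.4 and 14.9 FPKM in P-SSCs, and 24.4, 21.8 and 24.1 FPKM in graft P-SSCs. BM-MSCs were below all other libraries, and P-SSCs and graft P-SSCs overlapped. Fdft1 rose from BM-MSCs by 1.44 ± 0.33 to P-SSCs (limma adjusted p = 0.00925) and by 1.27 ± 0.33 to graft P-SSCs (adjusted p = 0.0123), the latter call being lost under quantile normalization (adjusted p = 0.0983).

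Soat1, which esterifies cholesterol for storage, had another order. It had 103, 41.3 and 78.1 FPKM in BM-MSCs, 6.42, 4.07 and 5.76 FPKM in P-SSCs, and 46.8, 49.5 and 52.8 FPKM in graft P-SSCs. P-SSCs were below all other libraries, and BM-MSCs overlapped graft P-SSCs. Soat1 fell by 3.47 ± 0.32 from BM-MSCs to P-SSCs (limma adjusted p = 3.26e-05) and rose by 3.00 ± 0.32 from P-SSCs to graft P-SSCs (adjusted p = 0.000121). Between graft P-SSCs and BM-MSCs, the mevalonate pathway kinase Pmvk fell by 1.04 ± 0.36 (adjusted p = 0.0412, kept in 2 of 9 fits that left out a library), and the sterol carrier Stard4, named after its values were seen, rose by 1.34 ± 0.41 (adjusted p = 0.0264, kept in 5 of 9, and 0.0567 and 0.0975 under the other scalings). Hmgcs1, an enzyme of the mevalonate pathway, passed no test with all libraries. It was called, without P-SSC replicate 3, higher in graft P-SSCs than in BM-MSCs by 1.08 (adjusted p = 0.0477), and Pmvk lower in graft P-SSCs than in P-SSCs by 0.66 (adjusted p = 0.0461).

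Caveolae respond to membrane tension, and genes induced by the mechanosensitive factors YAP and TAZ were listed for that reason. Of 5 in the table, 4 were tested. Cyr61, a matricellular protein and common YAP target, had 460 to 588 FPKM in BM-MSCs, 452 to 625 FPKM in P-SSCs and 653 to 667 FPKM in graft P-SSCs and passed no test with all libraries. With P-SSC replicate 3 left out, Cyr61 was called higher in graft P-SSCs than in BM-MSCs by 0.39 (adjusted p = 0.0393). The tissue factor gene F3 had 4.23, 5.88 and 3.87 FPKM in BM-MSCs, 68.6, 67.1 and 213 FPKM in P-SSCs, and 92.5, 79.9 and 79.4 FPKM in graft P-SSCs. F3 rose from BM-MSCs by 4.17 ± 0.40 to P-SSCs (limma adjusted p = 4.53e-05) and by 3.92 ± 0.40 to graft P-SSCs (adjusted p = 6.07e-05), and the P-SSC and graft P-SSC libraries overlapped. The kinase Nuak2 rose by 1.82 ± 0.60 from BM-MSCs to graft P-SSCs (adjusted p = 0.0363, kept in 5 of 9 fits that left out a library), and the RNA-binding protein Rbms3 fell by 0.87 ± 0.20 (adjusted p = 0.00703). Under quantile normalization, Nuak2 was also called higher in P-SSCs than in BM-MSCs (adjusted p = 0.0408) and Rbms3 lower in graft P-SSCs than in P-SSCs (adjusted p = 0.00821, and 0.0128 under median-of-ratios scaling). Dock5 did not pass the filter.

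Markers of other cells that hold caveolae were compared beside Cav1. In sorted cells measured in bulk, fewer cells of a type and less RNA per cell cannot be told apart. Of 24 endothelial markers the table holds 1, Erg, which was at 0 in all BM-MSC libraries, reached 0.43 FPKM in P-SSC replicate 3 and 0.11 FPKM in graft P-SSC replicate 1, and was at 0 in the other libraries. Of 12 smooth muscle and pericyte markers the table holds Notch3, with 7.13 to 8.01 FPKM in BM-MSCs, 0.64 to 1.91 FPKM in P-SSCs and 0.90 to 2.08 FPKM in graft P-SSCs. Of 11 adipocyte markers it holds Lpl, with 590 to 939 FPKM in BM-MSCs, 95.8 to 164 FPKM in P-SSCs and 13.4 to 16.9 FPKM in graft P-SSCs, which is the reverse order to Cav1. Of 15 skeletal muscle markers it holds Myl1, at 0 to 6.47 FPKM over all libraries. The defining markers Pecam1, Cdh5, Acta2 and Adipoq were not analysed here, nor were Itgav and Cd200, the genes of the sort. Of 16 stromal and sort markers the table holds Postn, with 90.6 to 125 FPKM in BM-MSCs, 390.5 to 476.4 FPKM in P-SSCs and 782.2 to 879.1 FPKM in graft P-SSCs.

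The summed level of blood cell markers, carried mostly by Hba-a2 and Lyz2, was highest in BM-MSCs, where Cav1 was lowest, and overlapped between P-SSCs and graft P-SSCs. Of 19 blood markers the table holds 7, and their summed level was 1165 to 2817 FPKM in BM-MSCs, 16.6 to 79.4 FPKM in P-SSCs and 36.2 to 94.2 FPKM in graft P-SSCs. The haemoglobin gene Hba-a2 had 748, 618 and 2201 FPKM in BM-MSCs, and replicate 3, with the most, was the library with the least Cav1. Lyz2 had 143, 540 and 608 FPKM in BM-MSCs and 14.2 to 84.0 FPKM in the other libraries. Mpo had 292 FPKM in BM-MSC replicate 1 and was at 0 in the other 2 BM-MSC libraries. Csf1r, the receptor of macrophages, was highest in graft P-SSCs. It had 2.68, 0.22 and 0 FPKM in BM-MSCs, 0.25 to 0.84 FPKM in P-SSCs and 5.57 to 6.31 FPKM in graft P-SSCs, and no test is given because it passed the filter through the graft libraries and 1 BM-MSC library. Adgre1, another macrophage gene, had 3.17, 2.72 and 0.034 FPKM in BM-MSCs, was at 0 in all P-SSC libraries and had 0.91 to 2.75 FPKM in graft P-SSCs. The part of blood cell RNA in the level of Cav1 was not tested. Without BM-MSC replicate 3, Cav1 differed by 4.27 between P-SSCs and BM-MSCs and by 6.09 between graft P-SSCs and BM-MSCs.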

How the data were processed

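RNA of 9 libraries, 3 per group as given by their titles, was analysed. The authors mapped reads to GRCm38 with STAR 2.6.1d, and the submitters' processing notes also name fastp, CASAVA and featureCounts 1.5.0-p3. The authors gave FPKM, obtained from fragments by dividing by gene length and library total, and nothing was rescaled between libraries. Library totals were inferred by taking the smallest product of FPKM and listed gene length in each library as a single fragment. With these totals, and the whole part of the mean length of a gene's annotated transcripts (GENCODE M21), values were turned into fragments. Of 22678 values above 0, 94.7% were whole fragments within 0.01. This held for all values above 0 of 3442 of 3609 genes, and gave the fragments and exact Poisson intervals. Whether libraries were strand-specific is not given in the sources used here.

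FPKM were changed to log2(FPKM + 1), so that differences of low genes are understated, genes with at least 1 FPKM in at least 3 of 9 libraries were kept, and groups were compared with limma 3.58.1 in R 4.3.3 (trended eBayes), with all libraries in 1 fit, at a Benjamini-Hochberg adjusted p under 0.05. The fit was tested on simulated data. Replicates held RNA of distinct mice by the methods of the study, and the sources used here do not say whether groups shared mice. Cav1 and the gene lists were chosen with earlier results of these data known. Named genes are Cav1, all members of the caveola lists, up to 5 of each other list by highest mean FPKM, the 10 genes with the highest Pearson r, the 5 at the smallest distance and the genes within 500 kb. Alternatives changed the pseudocount, filter, scaling, libraries in the fit, trend and replicate block, and left out each library in turn. Added after seeing the data were limma-voom on the recovered fragments, fragments scaled to 1000000 per library, and the count of genes with the order of Cav1 under other scalings and without P-SSC replicate 3. RefSeq promoter windows served for the motif search. Some members of the lists that enter the counts are not reported here by name.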

Additional observations from a re-analysis of the deposited data

How the results depend on the processing

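Cav1 kept its order in every alternative run, without overlap between groups. Its difference was 4.89 to 5.07 for P-SSCs against BM-MSCs, 1.5 to 1.83 for graft P-SSCs against P-SSCs and 6.39 to 6.90 for graft P-SSCs against BM-MSCs. Leaving out 1 library gave 4.27 to 5.12, 1.55 to 2.02 and 6.09 to 6.94. The genes limma called, 472, 665 and 816 in these comparisons, were 324 to 477, 575 to 665 and 699 to 1068 over the other alternatives, with 428, 628 and 744 of 1831 by limma-voom on recovered fragments, and 399 to 593, 450 to 892 and 555 to 1038 with 1 library left out. Of the calls between graft P-SSCs and P-SSCs, 441 higher and 224 lower became 312 and 302 under median-of-ratios scaling and 316 and 327 under quantile normalization, and between graft P-SSCs and BM-MSCs 501 and 315 became 388 and 364, and 400 and 381. Without P-SSC replicate 3, 72 genes in place of 43 held the order of Cav1. Anxa2 lost its call between graft P-SSCs and P-SSCs under median-of-ratios scaling, and Fdft1 its call between graft P-SSCs and BM-MSCs under quantile normalization. The causes were not tested.

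With the replicate block, 441, 621 and 755 genes were called. Same-numbered libraries did not deviate together, with a mean correlation of 0.02, -0.26 and -0.01 in the 3 comparisons. These correlations rest on 3 libraries per group and cannot tell whether libraries of different groups came from the same mice. The replicate numbers were not used as pairs in the main fit. The replicate block ended the calls of Sh3gl1 between P-SSCs and BM-MSCs, of Prkca between graft P-SSCs and P-SSCs and of Stard4 between graft P-SSCs and BM-MSCs. Cav1 had at least 39 fragments in each library. The fewest were in BM-MSC replicate 3, where the 95% exact Poisson interval ran from 1.64 to 3.16 FPKM. With 3 libraries per group, outliers within groups were not tested.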
